A study of Mus musculus with 10 samples.

Results

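The 45 genes described here encode the machinery that copies DNA and the regulators that switch it on at the passage from G1 into S phase. They were taken from a list of names covering replication licensing, the replisome, nucleotide synthesis, cyclin E and the E2F factors. That list was chosen with earlier results of these data known. All 45 were present in both deposited tables, which shared 19048 genes, and all 45 were among the 12485 genes bright enough to be tested.

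Replication origins are licensed in G1, when the origin recognition complex, CDC6 and CDT1 load the MCM helicase onto DNA. In S phase CDC45, the GINS complex and MCM10 turn that helicase on, primase and the replicative polymerases copy the strands, and PCNA, RFC, RPA, FEN1 and LIG1 hold, load, protect and join the new DNA. Many of these genes are targets of E2F transcription factors, which cyclin E kinase activity helps to release from the retinoblastoma protein, and resting T cells induce them when they are stimulated to divide.

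The RNA came from splenic CD3+ T cells of male mice on the Balb/c background, all 12 weeks old, 5 of wild type (WT) and 5 lacking KLF13 (KLF13 KO), a zinc finger factor of the Krüppel-like family. The cells of both genotypes were stimulated for 4 days with plate-bound antibody to CD3 and soluble antibody to CD28, and no resting cells were analysed here. The labels name a separate mouse for each sample, and they do not say how the KO allele was made. Each sample was 1 Affymetrix array. Values are log2 signals, and a KO minus WT difference below 0 means a lower signal in KO.

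Arrays could be compared only in 3 sets that share a scale. WT1 and KO1 had medians over all probe sets of 5.21 and 5.23. WT2, WT3, KO2 and KO3, of the same exon-level table, lay between 6.25 and 6.43, and WT4, WT5, KO4 and KO5, of a separate gene-level table, between 4.18 and 4.30. The targeted gene Klf13 was lower in every KO array than in every WT array of its set, by -0.62, -0.81 and -1.05 in the 3 sets. Over the sets its difference was -0.86 ± 0.12 (SE, 5 WT and 5 KO arrays; limma adjusted p = 0.0126). With 1 array left out that adjusted p ranged from 0.00145 to 0.0692 in limma (above the threshold without WT2, WT3, WT4, KO4 or KO5), and with the table in place of the array set as the block it was 0.9998. Among the 19048 genes, 7 T cell markers ranked between the 89.8th and 99.9th percentile of signal.

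Libraries of 1 set stood apart. In KO2 and KO3 the brightest probe sets were dimmer than in WT2 and WT3, with 99th percentiles of 11.4 and 11.6 against 12.2 and 12.3, and the middle spread of KO3 was 3.10 against 3.43 to 3.56 elsewhere in the exon-level table. The summed signal of the 7 T cell markers was 7379 and 7428 in KO2 and KO3 against 16300 and 17039 in WT2 and WT3. It was 5498 in KO1 against 7857 in WT1, and it ranged from 8401 to 9347 in the gene-level table without separating the genotypes. Results of replicates 2 and 3 are therefore given beside the shift of all genes in that set.

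Markers of other cells ranked lower, with the B cell genes Cd79a and Ms4a1, the myeloid gene Lyz2 and the NK cell gene Klrb1c under the filter. Of 7 B cell markers with a value 3 passed the filter, as did 4 of 8 myeloid and dendritic, 1 of 5 NK cell, 4 of 4 erythroid and 3 of 6 stromal and endothelial markers. No marker of these lists or of T cells passed limma's adjusted p under 0.05 in replicates 4 and 5 or over the sets. Summed B cell signal was 131 to 138 in KO4 and KO5 against 123 to 130 in WT4 and WT5, and 359 and 435 in KO2 and KO3 against 359 and 368 in WT2 and WT3. Myeloid sums were 180 to 197 in KO4 and KO5 against 179 to 181 in WT4 and WT5, and 348 to 351 in KO2 and KO3 against 316 to 317 in WT2 and WT3. NK cell sums were 126 to 131 in KO4 and KO5 and 94.2 to 131 in WT4 and WT5. Erythroid sums were 105 to 112 against 92.1 to 93.5 and stromal and endothelial sums 199.9 to 224 against 179.7 to 180.4 in the same arrays. The KO against WT ranges of replicates 2 and 3 were 181 to 185 against 177 in both for NK cells, 179 to 225 against 175 to 188 for erythroid cells and 371 to 417 against 336 to 367 for stromal and endothelial cells. In replicate 1 the KO and WT sums were 152 and 141 for B cells, 136 and 145 for myeloid cells, 83.0 and 90.8 for NK cells, 95.8 and 90.7 for erythroid cells and 184 and 175 for stromal and endothelial cells. The part of these other cells in the results below was not tested, and in such bulk samples fewer dividing cells and less RNA per cell cannot be told apart.

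The promoters of the list were searched for the E2F motif, since E2F control is what its members are best known to share. RefSeq windows (GRCm38.p6) were matched for 37 of the 45 genes, 6 of them with more than 1 window, and the 250 bases before each gene's start were read. Mcm4, Gins1, Gins2, Gins4, Prim2, Pole, Rfc2 and Ccne2 had no entry. An E2F match was any of TTTCCCGC, TTTCGCGC, TTTGGCGC and TTTGCCGC on either strand. It was found in 9 of the 37 members (24.3%), against 3.82% of 10053 tested genes and 2.16% of 27025 genes with a window. The windows below, 5′ to 3′ on the gene's strand with the matched letters in capitals, are those of 5 licensing genes and of Uhrf1, the member with a match that passed a test.
Orc1, chr4:108579401-108579453 (+): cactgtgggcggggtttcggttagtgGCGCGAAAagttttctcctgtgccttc
Cdc6, chr11:98907987-98908046 (+): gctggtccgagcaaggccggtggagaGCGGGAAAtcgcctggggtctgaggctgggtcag
Mcm5, chr8:75109334-75109393 (+): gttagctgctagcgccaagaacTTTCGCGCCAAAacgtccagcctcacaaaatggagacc
Mcm6, chr1:128359719-128359778 (-): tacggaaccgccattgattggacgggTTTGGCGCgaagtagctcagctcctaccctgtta
Mcm7, chr5:138172015-138172074 (-): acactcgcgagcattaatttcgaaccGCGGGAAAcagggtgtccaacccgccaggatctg
Uhrf1, chr17:56304102-56304161 (+): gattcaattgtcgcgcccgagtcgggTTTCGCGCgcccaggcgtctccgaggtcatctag
The capitals begin 27 bases before the start of Orc1, 138 before Cdc6, 47 before Mcm6, 165 before Mcm7 and 185 before Uhrf1. In Mcm5 a match on each strand overlaps, so 12 letters are in capitals, and a further overlapping pair lies farther upstream in Mcm6. Gins3, Pola1 and Rfc3 also had a match.

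KLF13 belongs to a family that binds GC boxes and CACCC letters. The GC box GGGCGG lay in 73.0% of members with a window, 62.5% of tested genes and 35.4% of all genes. The letters CACCC lay in 59.5%, 62.5% and 54.5%. CCAAT, the core of the NF-Y site of many cell cycle promoters, lay in 59.5% of members against 39.5% and 37.5%. These are matches of letters on both strands, with no measure of binding, and the GC box can share bases with CACCC or E2F matches.

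In replicates 4 and 5, 13 of the 45 replication genes fell in KO cells (28.9%) and none rose by limma's adjusted p under 0.05. Of all 12485 genes 2.72% passed, 1.99% in the lower direction and 0.721% in the higher. As members were chosen with earlier results of these data known, these shares do not test the list. Those that fell were the helicase subunit Mcm3, the helicase activators Mcm10, Cdc45 and Gins1, the polymerase Pole, the clamp loader Rfc4, the flap nuclease Fen1, the nucleotide enzymes Rrm2 and Tk1, the chromatin protein Uhrf1, and Ccne1, Ccne2 and E2f1. Of these, Ccne2 passed the brightness filter only through its WT arrays. The median difference of the 45 was -0.57 against -0.010 for all genes, and 44 of 45 were below 0 against 52.5% of all genes. Both KO arrays lay below both WT arrays for 40 members, against 26% of all genes, and above them for 0 members, against 20.3%. At an unadjusted p under 0.05, 35 members were lower (10.1% of all genes) and 0 were higher (5.81%). Without KO4 6 members passed (1.60% of all genes), without WT4 7 passed (2.67%) and without WT5 25 passed (4.17%). Cdc45, Mcm10, Rrm2, Tk1 and Uhrf1 passed whichever of the 4 arrays was left out, Ccne1 in none of these fits, Pole, Rfc4 and E2f1 in 1, Mcm3 in 2, and Fen1 and Gins1 in 3. Ccne2 passed in the 2 such fits in which it was tested and was under the filter without WT4 or WT5.

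In replicates 2 and 3 no gene of the 12485 passed limma's adjusted p under 0.05 (0%), and so no member did. At an unadjusted p under 0.05, 1086 genes were lower (8.7%) and 102 were higher (0.817%), among them 2 members, Pcna and Mcm4, both lower. The member median was -0.32 while that of all genes was -0.22, and 34 members were below 0 (65.2% of all genes). KO arrays lay below WT arrays without overlap for 18 members, a smaller share than the 43.1% of all genes, and above them for Gins2 and Rfc5 (11.7% of all genes). After quantile normalization within the set the medians were -0.11 for members and -0.060 for all genes. Here 1 array decided the value, since the member median was -0.66 without KO2 and -0.012 without KO3. Without KO2 32 members and 77.0% of all genes passed, and without KO3 12 members and 19.96% of all genes. With array weights 105 genes passed, and 0 members.

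Replicate 1 allowed no test, with 1 array a genotype. There 39 members were below 0 in KO1 (53.5% of all genes), with a median of -0.25 against -0.018 for all genes. Orc1, Prim1, Lig1, Dut, Chaf1a and Ccne2 were above 0. Of their probe sets 14 of 20 in Orc1, 20 of 28 in Lig1 and 8 of 11 in Ccne2 were below 0. In Prim1 it was 3 of 14, in Dut 3 of 12 and in Chaf1a 8 of 16. Lig1 and Ccne2 turned below 0 under another probe set summary or scaling, while Orc1, Prim1, Dut and Chaf1a did not. Of the members below 0, Pola1, Rpa1, Tk1 and E2f2 turned above 0 under another such choice.

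Fitted over all 3 sets, 73 of 12485 genes passed limma's adjusted p under 0.05 (0.585%; 0.489% lower and 0.0961% higher), and no member was among them. The lower share of the genes that passed was 83.6%, and 64.9% with probe set medians and quantile normalization within sets. The difference was below 0 for all 45 members as deposited, but Dut, Gins2 and E2f2 turned above 0 under some other scaling or probe set summary. The median was -0.38 against -0.097 for all genes. At an unadjusted p under 0.05, 25 members were lower (12.8% of all genes) and 0 were higher (2.1%). The smallest adjusted p of a member belonged to Pcna, at 0.0555, followed by Pold1 at 0.0895 and Mcm7 at 0.143. With weights estimated for each array 14 members passed (4.04% of all genes), with array medians subtracted 1 passed (Pcna; 0.761%), without KO2 1 passed (Gins1; 0.504%) and without KO3 3 passed (Mcm7, Pcna and Pold1; 2.86%).

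A stricter count asked that every KO array lie below every WT array of its own set in all 3 sets. It held for 15 of 45 members (33.3%) and for 10.8% of all genes, and the reverse held for no member and for 1.63% of all genes. The shares of all genes were not matched for brightness, with which differences in replicates 2 and 3 varied. The members' median percentile of signal was 69.6 in the exon-level table. The 15 were the 6 MCM helicase subunits, Gins4, Prim2, Pold1, Pcna, Rpa1, Rpa2, Tyms, Ccne1 and E2f1. The mean difference was below 0 in each set for 30 members and for 24.8% of all genes, and for 27 members after quantile normalization within sets.

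**Figure D1:**
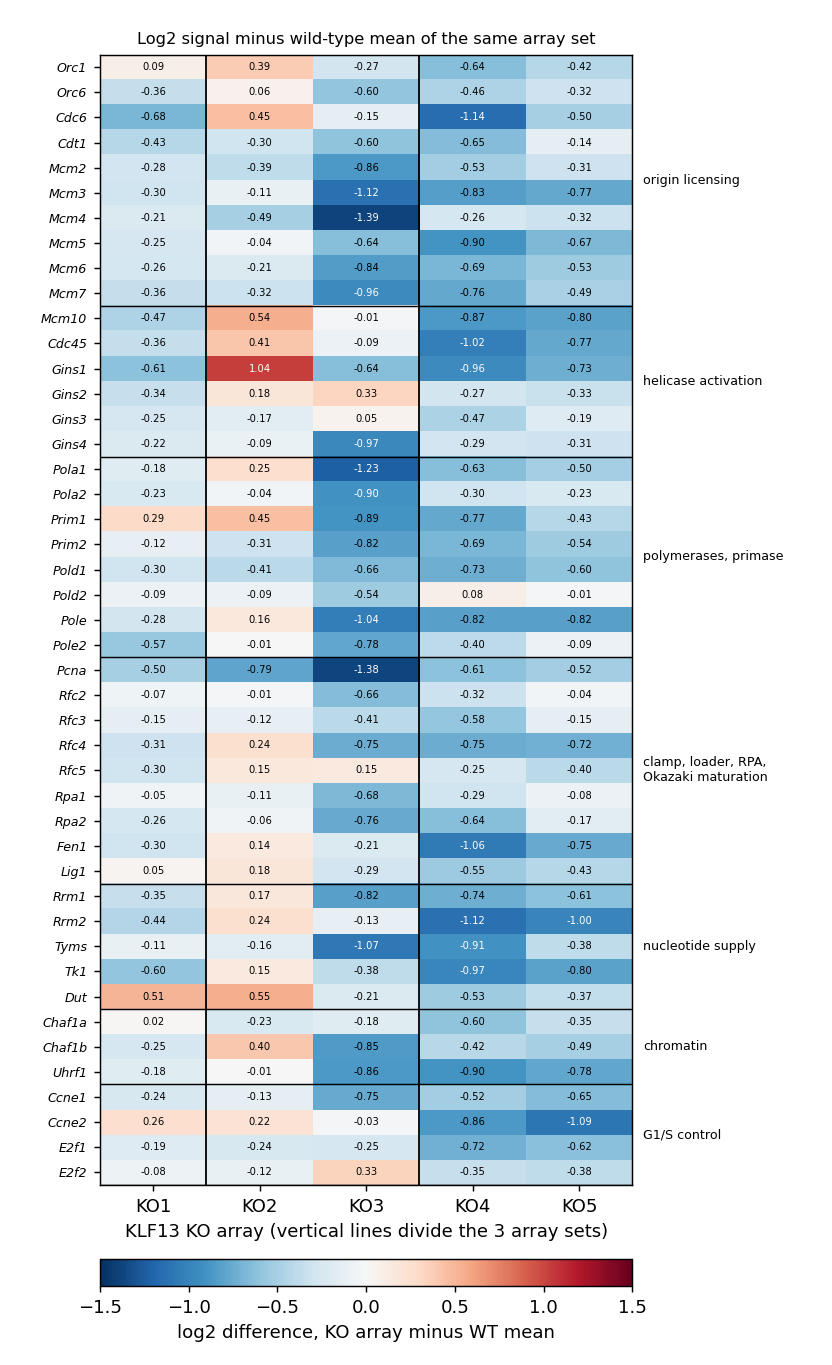
The log2 signal of each of the 45 genes in each KO array minus the WT mean of the same array set, ordered by role, with blue below WT and red above. KO4 and KO5 are blue for nearly every gene, KO3 is blue for 41 of 45 genes, and KO2 is mixed, with the helicase activators Mcm10, Cdc45 and Gins1 in red.

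Licensing genes, which mark origins and load the helicase, had a median difference of -0.49 over the 3 sets. Of the 10 genes 1 fell in replicates 4 and 5, Mcm3, and none passed over the sets. Mcm2 to Mcm7, the 6 subunits of the helicase ring, were lower in KO arrays of every set, with medians of -0.27, -0.62 and -0.62 in the 3 sets in order. In replicates 2 and 3 all genes stood at -0.22 and those of the brightness of Mcm2 to Mcm7 at -0.57, and after quantile normalization within the set the median of the 6 was -0.33. All 6 KO values were under the WT values in each set as deposited, although Mcm5 turned above 0 in replicates 2 and 3 when exon-level probe sets were summarised by their median.

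Mcm7 gave 8.50 in WT1 and 8.14 in KO1, 9.56 and 9.50 in WT2 and WT3 against 9.21 and 8.57 in KO2 and KO3, and 8.98 and 8.60 in WT4 and WT5 against 8.03 and 8.30 in KO4 and KO5. Mcm6 gave 8.76 and 8.50 in WT1 and KO1, 9.37 and 9.42 against 9.18 and 8.56 in replicates 2 and 3, and 9.40 and 9.17 against 8.60 and 8.75 in replicates 4 and 5. In the same order of arrays, kept for later genes, Mcm2 gave 8.43 and 8.15, then 9.28 and 9.35 against 8.93 and 8.45, then 8.77 and 8.48 against 8.10 and 8.32. No KO array reached a WT array of its set for any of these subunits, and in replicates 2 and 3 it was KO3 that lay lowest. Over the sets the difference was -0.58 ± 0.15 (SE) for Mcm7, -0.51 ± 0.14 for Mcm6 and -0.47 ± 0.13 for Mcm2, with limma adjusted p of 0.143, 0.169 and 0.175.

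Mcm3 was the subunit that passed in replicates 4 and 5, at 8.97 and 8.63 in WT4 and WT5 against 7.97 and 8.03 in KO4 and KO5. Its difference there was -0.80 ± 0.15 (SE, 2 WT and 2 KO arrays; limma adjusted p = 0.0250). Mcm5 differed by a similar -0.79 ± 0.18 with a limma adjusted p of 0.0518, and Mcm4 by -0.29 ± 0.15. The ring subunits thus spread from -0.29 to -0.80 in that set. Mcm4 had the lowest value of the 6 in replicates 2 and 3, -0.94, and Mcm5 the highest, -0.34.

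The loaders were less even. Orc1, the largest subunit of the origin recognition complex, gave 4.80 in WT1 and 4.88 in KO1, 5.997 and 5.85 against 6.31 and 5.65 in replicates 2 and 3, and 4.47 and 4.42 against 3.80 and 4.02 in replicates 4 and 5. The genotypes separated in replicates 4 and 5 but overlapped in replicates 2 and 3, where KO2 was the highest array. Cdc6, an ATPase needed to load the MCM ring, differed by -0.68, 0.15 and -0.82 in the 3 sets. Cdt1, its partner in loading, differed by -0.43, -0.45 and -0.40, and Orc6 by -0.36, -0.27 and -0.39.

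**Figure D2:**
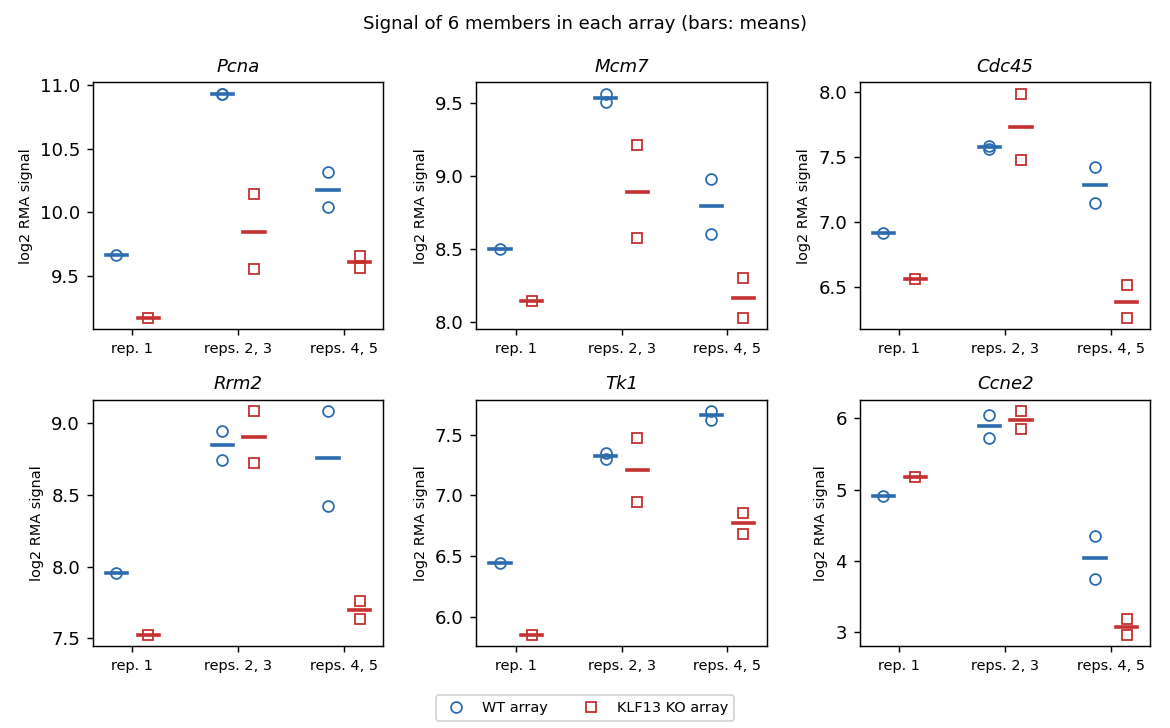
Log2 RMA signal of Pcna, Mcm7, Cdc45, Rrm2, Tk1 and Ccne2 in each array, by array set, with bars at group means; levels are to be compared only within a set. For Pcna and Mcm7 no KO array reaches a WT array of its set, while for Cdc45, Rrm2, Tk1 and Ccne2 the genotypes overlap in replicates 2 and 3 and are apart in replicates 4 and 5.

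Genes for helicase activation stood on different sides of 0 in different sets. All 6 were below 0 in KO1 and in replicates 4 and 5, where 3 fell, with medians of -0.35 and -0.58. Their median was 0.18 in replicates 2 and 3, while that of all genes was -0.22. By array the median of the 6 genes was 0.30 in KO2 and -0.053 in KO3, where the medians of all genes were -0.11 and -0.34.

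Cdc45, which joins the MCM ring in the active helicase, gave 6.92 in WT1 and 6.56 in KO1, 7.58 and 7.56 in WT2 and WT3 against 7.99 and 7.48 in KO2 and KO3, and 7.42 and 7.15 in WT4 and WT5 against 6.26 and 6.52 in KO4 and KO5. KO2 was the highest array of its set and KO3 the lowest, while both KO4 and KO5 lay under both WT4 and WT5. The difference there was -0.89 ± 0.15 (SE; limma adjusted p = 0.0191). Mcm10, a scaffold of the starting fork, gave 6.39 and 6.07 in WT4 and WT5 against 5.37 and 5.43 in KO4 and KO5, a difference of -0.83 ± 0.14 (limma adjusted p = 0.0207). It differed by 0.26 in replicates 2 and 3.

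GINS is a ring of 4 subunits that binds beside CDC45. Gins1 fell in replicates 4 and 5, from 6.06 and 5.81 to 4.98 and 5.21, by a difference of -0.84 ± 0.14 (SE; limma adjusted p = 0.0207). Its KO arrays lay on either side of the WT arrays in replicates 2 and 3, at 7.58 in KO2 and 5.90 in KO3 against 6.58 and 6.49. Gins4 gave 7.04 and 6.82 in replicate 1, 8.33 and 8.40 against 8.27 and 7.39, and 7.60 and 7.18 against 7.10 and 7.08, with no overlap in any set. Gins2 gave 6.65 and 6.31, then 7.18 and 7.34 against 7.44 and 7.59, then 6.25 and 6.23 against 5.97 and 5.91. It was thus lower in KO arrays in replicate 1 and in replicates 4 and 5 and higher in replicates 2 and 3. Gins3 gave 5.14 and 4.89, then 6.28 and 6.23 against 6.08 and 6.31, then 6.14 and 5.78 against 5.49 and 5.77, with overlap in replicates 2 and 3.

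The difference between sets was tested for all genes, as the KO minus WT difference in replicates 4 and 5 minus that in replicates 2 and 3. No gene passed limma's adjusted p under 0.05 (0%). At an unadjusted p under 0.05, 1.71% of all genes were more negative in replicates 4 and 5 and 9.48% more positive. Of the members 8 were more negative at that level and none more positive: Mcm10, Cdc45, Rrm2, Ccne2, Fen1, Tk1, Cdc6 and Gins2. The smallest limma adjusted p was that of Mcm10, 0.354, at a difference between sets of -1.10 ± 0.31 (SE). Without KO2 15 members and 53.5% of all genes passed in this comparison, and without KO3 14 members and 5.24% of all genes. In these fits the lone KO array is assumed to vary like the other groups.

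Polymerase and primase genes had a median difference of -0.41 over the 3 sets, and 1 of the 8 fell in replicates 4 and 5. Pold1, the catalytic subunit of polymerase delta, which extends the lagging strand, gave 7.39 in WT1 and 7.09 in KO1, 7.998 and 8.03 against 7.61 and 7.35 in replicates 2 and 3, and 7.68 and 7.32 against 6.77 and 6.90 in replicates 4 and 5. All 5 KO arrays lay below the WT arrays of their set. The difference over the sets was -0.54 ± 0.12 (SE; limma adjusted p = 0.0895). Pold2, the small subunit of the same enzyme, gave 7.34 and 7.25, then 8.12 and 8.32 against 8.13 and 7.68, then 7.78 and 7.62 against 7.78 and 7.69. It was the member above 0 in replicates 4 and 5, by 0.04, and its arrays overlapped there.

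Pole, the catalytic subunit of polymerase epsilon on the leading strand, fell in replicates 4 and 5, from 7.18 and 6.61 in WT4 and WT5 to 6.07 and 6.07 in KO4 and KO5. The difference was -0.82 ± 0.18 (SE; limma adjusted p = 0.0467), with the KO arrays nearly equal and the WT arrays apart. In replicate 1 Pole gave 6.64 and 6.37, and in replicates 2 and 3 7.40 and 7.49 against 7.61 and 6.41. Prim2, the large subunit of primase, gave 6.11 and 5.99, then 7.32 and 7.37 against 7.03 and 6.53, then 6.78 and 6.37 against 5.89 and 6.04, with no overlap in any set. Prim1, the small subunit that makes the primer, differed by 0.29, -0.22 and -0.60 in the 3 sets. Pola1 and Pola2, of the polymerase that extends the primer, differed by -0.57 and -0.26 in replicates 4 and 5, and Pole2 by -0.24.

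Pcna, the sliding clamp and the brightest member (at the 98.2th and 97.7th percentile of tested genes in the exon-level and gene-level tables), was lower in all 5 KO arrays. It gave 9.67 in WT1 and 9.17 in KO1, 10.93 and 10.93 in WT2 and WT3 against 10.14 and 9.55 in KO2 and KO3, and 10.31 and 10.04 in WT4 and WT5 against 9.56 and 9.65 in KO4 and KO5. The difference over the sets was -0.76 ± 0.15 (SE), a KO level of 0.590 times WT, with a limma adjusted p of 0.0555. With the median of exon-level probe sets and quantile normalization within sets the difference was -0.42. In the exon-level table all 10 probe sets of Pcna were below 0 in replicates 2 and 3 and 9 of 10 in replicate 1. Both gene-level probe sets were lower in KO4 and KO5 than in WT4 and WT5. Their values were nearly equal, at 10.31 and 10.31 in WT4 and 9.62 and 9.65 in KO5. Whether both measure the same transcript was not tested.

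The 9 genes of clamp, loader, single-strand binding and Okazaki fragment maturation had a median of -0.28 over the sets. Fen1, which trims the flaps of Okazaki fragments, gave 5.97 and 5.67 in replicate 1, 6.69 and 6.46 against 6.72 and 6.37 in replicates 2 and 3, and 6.93 and 6.65 against 5.74 and 6.04 in replicates 4 and 5. It fell in replicates 4 and 5 by 0.90 ± 0.15 on the log2 scale (SE; limma adjusted p = 0.0207), while in replicates 2 and 3 the genotypes overlapped at -0.03. Rfc4, a subunit of the clamp loader, gave 6.80 and 6.49, then 7.93 and 7.98 against 8.20 and 7.20, then 7.66 and 7.34 against 6.75 and 6.78. It fell in replicates 4 and 5 by 0.73 ± 0.14 on the log2 scale (limma adjusted p = 0.0298).

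Subunits of the clamp loader did not share one size of difference. Rfc5 gave 7.77 and 7.47, then 8.63 and 8.63 against 8.79 and 8.78, then 7.60 and 7.64 against 7.37 and 7.22. Both its KO arrays were thus above both WT arrays in replicates 2 and 3 and below them in replicates 4 and 5. Rfc2 differed by -0.18 and Rfc3 by -0.36 in replicates 4 and 5. Rpa1 and Rpa2, which coat single-stranded DNA, differed by -0.19 and -0.40 there with no overlap in any set. Lig1, which seals Okazaki fragments, differed by -0.49 there and by 0.05 and -0.05 in the other sets.

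Nucleotide supply genes had a median of -0.67 in replicates 4 and 5, the lowest of the 7 role groups in that set, and 2 of the 5 fell. Rrm2, the cell cycle regulated subunit of ribonucleotide reductase, gave 9.09 and 8.42 in WT4 and WT5 against 7.63 and 7.76 in KO4 and KO5. Its difference of -1.06 ± 0.20 (SE) was the largest of any member in that set, a KO level of 0.480 times WT (limma adjusted p = 0.0279). Rrm2 gave 8.75 and 8.95 against 9.09 and 8.72 in replicates 2 and 3, a difference of 0.06, and 7.96 and 7.52 in replicate 1. Rrm1, the larger subunit, gave 8.82 and 8.48, then 9.52 and 9.42 against 9.64 and 8.65, then 9.16 and 8.71 against 8.20 and 8.32.

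Tk1, the thymidine kinase of dividing cells, had the smallest limma adjusted p of a member in replicates 4 and 5, 0.0120. It gave 6.44 and 5.85 in WT1 and KO1, 7.30 and 7.34 against 7.47 and 6.94 in replicates 2 and 3, and 7.70 and 7.62 against 6.69 and 6.85 in replicates 4 and 5, where its difference was -0.89 ± 0.13 (SE). A second, dimmer gene-level probe set named Tk1 read 6.995 and 6.76 in WT4 and WT5 against 6.11 and 6.28 in KO4 and KO5. Whether both measure the same transcript was not tested.

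Rrm1 and the other 2 nucleotide enzymes did not pass a test, with a limma adjusted p of 0.0661 for Rrm1 in replicates 4 and 5. Tyms, which makes thymidylate, gave 5.63 and 5.53, then 6.98 and 7.05 against 6.86 and 5.94, then 6.97 and 6.43 against 5.79 and 6.32, with no overlap in any set. Dut, which removes dUTP, gave 6.52 and 7.03, then 7.91 and 7.83 against 8.42 and 7.66, then 6.97 and 6.82 against 6.36 and 6.53. It was higher in KO1 than in WT1, overlapped in replicates 2 and 3 and was lower in replicates 4 and 5. Its difference over the sets, -0.01 ± 0.18 (SE; limma adjusted p = 0.978), was the closest to 0 of all members.

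Chromatin genes were lower in replicates 4 and 5, where 1 of 3 fell. Uhrf1, which carries DNA methylation through replication, gave 8.27 and 8.10, then 9.11 and 9.22 against 9.16 and 8.30, then 8.35 and 8.09 against 7.32 and 7.44. The difference in replicates 4 and 5 was -0.84 ± 0.14 (SE; limma adjusted p = 0.0182). It was the member with an E2F match printed above that passed: a match lay in 1 of 10 members that passed and had a window, and in 8 of 27 that did not pass. Chaf1a and Chaf1b encode subunits of the factor that places histones on new DNA. Chaf1a gave 6.15 and 6.17, then 7.54 and 7.43 against 7.26 and 7.30, then 6.94 and 6.36 against 6.04 and 6.30. Chaf1b gave 6.39 and 6.14, then 7.26 and 7.22 against 7.64 and 6.38, then 6.75 and 6.36 against 6.14 and 6.06. Both were lower in both KO arrays of replicates 4 and 5 and did not pass, at -0.48 ± 0.19 and -0.45 ± 0.15 (SE).

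Of the 4 regulators of the G1/S passage 3 fell in replicates 4 and 5, with Ccne2 past the filter only through its WT arrays. Without WT4 none of the 3 was called, since Ccne1 and E2f1 did not pass and Ccne2 was under the filter. Ccne1, a cyclin E, gave 7.03 and 6.79, then 7.91 and 7.84 against 7.75 and 7.13, then 7.50 and 7.51 against 6.99 and 6.85. Every KO array was below the WT arrays of its set, and the difference in replicates 4 and 5 was -0.59 ± 0.12 (SE; limma adjusted p = 0.0427). E2f1, an activating E2F factor, gave 5.67 and 5.48, then 6.48 and 6.42 against 6.21 and 6.20, then 6.45 and 6.23 against 5.62 and 5.72. It too lay lower in each KO array, with a difference in replicates 4 and 5 of -0.67 ± 0.13 (limma adjusted p = 0.0337).

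The other cyclin E gene, Ccne2, gave 4.34 and 3.74 in WT4 and WT5 against 3.18 and 2.95 in KO4 and KO5, a difference of -0.97 ± 0.19 (SE; limma adjusted p = 0.0333). These are low signals: it ranked at the 0.232th percentile of tested genes in the gene-level table, next to the filter. Its mean over that table was 3.55, with both KO arrays below it, and it was under the filter without WT4 or WT5. Its WT arrays thus carried it past the filter, and its pass is no separate support for a fall. In the exon-level table it gave 4.92 in WT1 and 5.17 in KO1, and 5.73 and 6.05 against 6.11 and 5.86 in replicates 2 and 3, where the genotypes overlapped. E2f2, another activating factor, gave 5.94 and 5.86, then 6.60 and 6.64 against 6.50 and 6.95, then 6.74 and 6.75 against 6.39 and 6.36. Its KO arrays lay below WT in replicates 4 and 5 and on either side of WT in replicates 2 and 3.

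**Figure D3:**
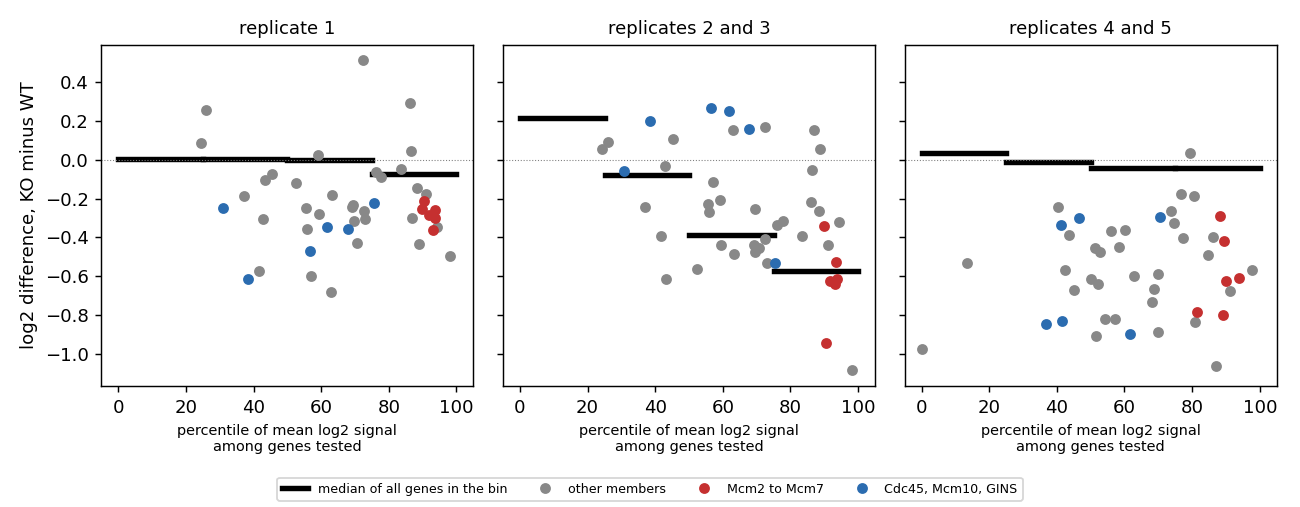
The KO minus WT log2 difference of each member against the percentile of its mean signal among tested genes, in each array set, with black bars at the median of all genes in each of 4 equal bins of brightness. In replicates 2 and 3 the bars descend from 0.21 to -0.57, while in replicates 4 and 5 the bars lie near 0 and 44 of 45 members lie below 0.

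Differences varied with brightness in replicates 2 and 3. Over 4 equal bins of tested genes from the dimmest to the brightest, the median difference of all genes was 0.21, -0.077, -0.39 and -0.57 in that set. The 18 members of the brightest bin had a median of -0.37, above that of their bin, and the 18 of the next bin -0.26 against -0.39. Mcm2 to Mcm7 all belong to the brightest bin there, with their median of -0.62 close to that of the bin. After quantile normalization within the set the brightest bin stood at -0.31 and its members at -0.14. In replicates 4 and 5 the bins stood at 0.033, -0.012, -0.045 and -0.043 and their members at -0.75, -0.48, -0.60 and -0.53, and in replicate 1 the members of the brightest bin stood at -0.24 against -0.075. The part of this dependence on brightness in the members' values was not tested.

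**Figure D4:**
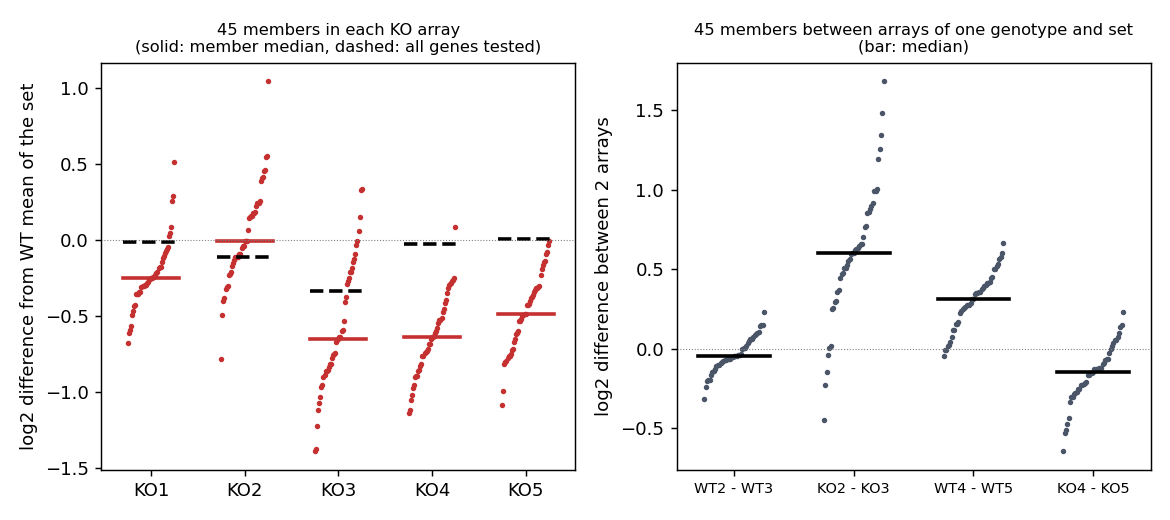
Left, the 45 members' log2 differences from the WT mean in each KO array, with the member median (solid) and the median of all tested genes (dashed). Right, the members' log2 differences between the 2 arrays of one genotype and set; KO2 lies above KO3 for 41 of 45 members and WT4 above WT5 for 42 of 45.

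Members also differed between arrays of one genotype. KO2 exceeded KO3 for 41 of 45 members, by a median of 0.60, and for 59.7% of all genes, by a median of 0.19. WT4 exceeded WT5 for 42 of 45 by a median of 0.31, and for 45.3% of all genes, whose median was -0.026. WT2 and WT3 were closer, with a member median of -0.046, and KO4 and KO5 differed by a member median of -0.14. Set against the WT mean, the member medians were -0.25, -0.012, -0.66, -0.64 and -0.49 in KO1 to KO5, where those of all genes were -0.018, -0.11, -0.34, -0.030 and 0.0007. The difference in replicates 4 and 5 was thus larger than the gap between WT4 and WT5 at the median, and the gap between KO2 and KO3 larger than the difference in replicates 2 and 3.

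Directions were compared under 6 choices of scaling and probe set summary. In replicates 4 and 5, 44 members were below 0 under all 6, Pold2 was above 0 under all 6 and no member changed direction. Fewer choices differ for these arrays, since the exon-level summary does not reach them and quantile normalization within set or table is the same step. The steadier directions there are therefore in part fixed by the choices. In replicates 2 and 3, 27 were always below 0, 11 changed direction and 7 were always above it: Cdc6, Cdc45, Mcm10, Gins2, Rrm2, Ccne2 and E2f2. In replicate 1, 35 were always below, 4 always above and 6 changed direction, Tk1 among them.

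Exon-level probe sets were also read one by one. The members had 639 probe sets, of which 72.8% were below 0 in replicate 1 (52.6% over tested genes) and 71.0% in replicates 2 and 3 (64.9%). Both held for 51.8% of them, against 34.8% over tested genes. All 16 probe sets of Mcm2 were below 0 in replicates 2 and 3, but none of the 4 of Gins2, 4 of 21 of Mcm10 and 5 of 21 of Cdc45. Some probe sets lay far from the rest of their gene in replicate 1, with a difference of 8.64 in Pold1, 6.54 in Ccne2, 5.86 in Orc1, 5.66 in Dut and -6.87 in Pole2.

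Of 65 further genes of replication and the G1/S passage 63 were tested. None passed over the 3 sets, with a smallest limma adjusted p of 0.146. At an unadjusted p under 0.05, 17 were lower (12.8% of all genes) and 0 higher (2.1% of all genes). In replicates 4 and 5, 6 fell and none rose: Ccna2, Clspn, Dtl, Asf1b, Chtf18 and Top2a. Their share of 9.52% lies between the 28.9% of the 45 members and the 1.99% of all genes. Both gene lists were chosen with earlier results of these data known, so this order was not tested. Ccna2, the cyclin of S phase, gave 8.57 and 8.14 in WT4 and WT5 against 7.40 and 7.45 in KO4 and KO5, a difference of -0.93 ± 0.16 (SE; limma adjusted p = 0.0199). Clspn, an adaptor of the replication checkpoint, gave 6.43 and 6.18 against 5.54 and 5.57, a difference of -0.75 ± 0.13 (limma adjusted p = 0.0242). The same 2 genes differed by 0.22 and 0.04 in replicates 2 and 3. The median of the 63 was -0.28 in replicates 4 and 5 and -0.35 in replicates 2 and 3, where the medians of all genes were -0.010 and -0.22.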

How the data were processed

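Total RNA was hybridised to Affymetrix arrays by the authors. The deposited values are log2 signals made with RMA, per the submitters' processing notes. Its version, the annotation and the build are not given in the sources. They form an exon-level table of 241576 probe sets (replicates 1 to 3) and a gene-level table of 35556 (replicates 4 and 5), normalized separately. Array sets were drawn where column medians within a table lay over 0.5 apart. The labels' protocols name an oligo(dT) primer and a kit for 3′ arrays, while the tables hold exon-level and gene-level probe sets. Which protocol was used, and whether all exon-level arrays were normalized together, is not known here, and both bear on a mean over exon-level probe sets.

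Probe sets naming 1 gene were kept. A gene's value was the mean over its exon-level probe sets and the brightest gene-level one, and a gene was tested if its mean signal reached the 30th percentile in both tables. limma 3.58.1 in R 4.3.3 (lmFit, eBayes, 2-sided, Benjamini-Hochberg over all genes tested, threshold 0.05) was fitted with the array set as a block, in replicates 4 and 5, in replicates 2 and 3, and for the difference between those sets. The fits were also run on simulated data with the same KO difference in all sets and the same spread in every array. The arrays here differ from that, with a median absolute gap over members of 0.60 between KO2 and KO3 and 0.078 between WT2 and WT3. That run therefore does not show how the fits perform on these data. The number of arrays limits the precision. Within a set p-values measure the spread between its arrays, each of a separate mouse, with variance shared across genes by eBayes. Over the sets that spread also holds differences between sets in the KO minus WT difference.

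Members, role groups, the list of 65 further pathway genes and marker lists for T, B, myeloid and dendritic, NK, erythroid, and stromal and endothelial cells were chosen with earlier results of these data known. In each role group the 3 members of smallest p and that of largest p over the sets are given in every array, and of the further genes up to 2 past the threshold; other names were chosen after their values were seen. Alternatives covered normalization, the summary of probe sets, the filter, the variance model, array weights, the block and leaving out each array.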

Additional observations from a re-analysis of the deposited data

Results flagged for a closer look

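For each of the 45 genes, for Klf13 and for the member median, 47 in all, the 5 KO arrays' differences from the WT mean of their set were checked for an array far from the others. In 4 an array lay apart. The rule flags about 1 in 20 where the 5 values are independent and of equal spread, which does not hold here. KO arrays of one set share a WT mean. The median absolute gap over members was 0.60 between KO2 and KO3 and 0.15 between KO4 and KO5. Mcm4 was at -1.39 in KO3, Gins4 at -0.97 in KO3 and Pold2 at -0.54 in KO3, each lower than in the other KO arrays. Gins1 was at 1.04 in KO2, higher than in the others. All 4 arrays belong to replicates 2 and 3.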

How the results depend on the processing

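In replicates 4 and 5, where 13 members passed, 20 passed with array medians subtracted and 20 with a trended and robust variance, and leaving out 1 array gave 6 to 25. Of all genes 3.81% passed with array medians subtracted and 4.14% with the trended and robust variance, against 2.72% without these changes. The calls thus rose over all genes as well. All 13 members passed under both quantile normalizations, the other probe set summaries and array weights. These are not all separate checks, since both quantile normalizations are the same step in the gene-level table. The exon-level summary leaves gene-level values unchanged, and the gene-level summary can alter only the members Pcna and Tk1. Pole was lost without a filter, Ccne2 was not tested at the 50th percentile filter or without WT4 or WT5, and leaving out 1 array lost Ccne1 in 4 of 4 fits, E2f1, Pole and Rfc4 in 3, Mcm3 in 2, and Fen1 and Gins1 in 1. Over the sets 1 member (Pcna) passed with medians subtracted (0.761% of all genes) and 14 (31.1%) with array weights (4.04% of all genes). With 1 array left out 0 to 3 members passed (0.0881% to 2.86% of all genes). In replicates 2 and 3 leaving out 1 array gave 0 to 32 members (71.1% without KO2, against 77.0% of all genes) and a median of -0.66 to -0.012, and for the difference between sets 0 to 15 members (33.3% against 53.5%); without KO2 or KO3 the lone KO array is assumed to vary like the other groups. Klf13 over the sets kept -0.86 with the table as the block but had an adjusted p of 0.9998; with 1 array left out it was -0.93 to -0.79, with adjusted p from 0.00145 to 0.0692.

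The replicate numbers name separate mice. Within a set the gap between the WT arrays (first minus second replicate) was correlated over genes with that between the KO arrays. The correlation was -0.42 in replicates 2 and 3 and -0.24 in replicates 4 and 5. With a replicate block 25 members passed in replicates 4 and 5 and 0 over the sets, and the genes passing were 23 over the sets, 660 in replicates 4 and 5 and 85 in replicates 2 and 3.

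The 73 genes over the sets became 31 with the median of exon-level probe sets, 37 with quantile normalization added, 4 with the table as block, 504 with array weights and 11 to 358 with 1 array left out. Of those passing 83.6% were lower, against 64.9% with probe set medians and quantile normalization, 71.2% with array weights and 71.8% to 96.4% with 1 array left out. The 339 of replicates 4 and 5 became 517 with trended and robust variance and 200 to 521 with 1 array left out. In replicates 2 and 3 105 genes passed with array weights and 1 to 9616 with 1 array left out, and for the difference between sets 19 with trended and robust variance, 1 with array weights and 0 to 6684.

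Directions near 0 turned. Over the sets Dut was at 0.090 (quantile within sets), 0.086 (within tables) and 0.015 (medians subtracted), and from -0.15 to 0.083 with 1 array left out, above 0 without KO3, KO4, KO5, WT4 or WT5. Gins2 was at 0.0059 (quantile within tables), 0.013 (probe set medians) and 0.10 (with quantile within sets), where E2f2 was at 0.033. In replicates 4 and 5 with 1 array left out Pold2 ranged from -0.048 to 0.12, below 0 without KO4 or WT5, and Pole2 from -0.49 to 0.0060, above 0 without WT4. The causes were not tested. Of single-member values 1544 kept direction and side of the threshold, 80 came to pass and 18 ceased to pass.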
